A study of Homo sapiens with 6 samples.

Results

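The 10 genes described here are the sterol and lipogenic regulators SREBF1, SREBF2, SCAP, INSIG1 and INSIG2, the liver X receptor (LXR) genes NR1H2 and NR1H3, and the LXR target genes ABCA1, ABCG1 and MYLIP. They were picked by gene symbol for their known roles, but with earlier results of these data already known. All 10 were found among the 63241 genes of the table. The RNA came from MDA-MB-231, a line of human breast cancer cells that lack hormone receptors, grown with fetal bovine serum. There are 6 libraries, 3 from cultures exposed to ArA at 40 µM for 24 h and 3 from the same cells left without it (control). The study's title spells out arachidonic acid, a polyunsaturated fatty acid, and the labels name no vehicle for the control cells. Levels are in TPM, a gene's share of a library's transcripts after division by transcript length, scaled to the same total in each library, so levels of different genes can be set side by side. No read totals are kept in this unit, so sequencing depth is unknown and precision can be judged only by how far replicates differ. Values of single libraries are given in the order of replicates 1, 2 and 3.

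SREBPs are transcription factors made as precursors in the membrane of the endoplasmic reticulum, where the escort protein SCAP binds them and INSIG proteins hold the pair back while sterols are plentiful. When sterols run low, SCAP carries the precursor to the Golgi, where proteases release the active part. SREBP-1, from SREBF1, mainly drives genes of fatty acid synthesis, and SREBP-2, from SREBF2, mainly those of cholesterol synthesis and uptake. LXRs are nuclear receptors for oxidised cholesterol that pair with RXR receptors and switch on cholesterol export, SREBF1 and MYLIP. Polyunsaturated fatty acids are known from liver and cultured cells to oppose SREBP-1, by lowering its transcript and its cleavage, and to compete with LXR ligands. Setting cells given ArA beside control cells shows the transcript levels of these genes after exposure to one such fatty acid.

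Several of these genes are known targets of SREBP or LXR themselves, so promoter stretches that hold letters of known elements are shown. RefSeq windows of the 250 bases before a transcript start (build GRCh38.p14) were found for 9 of the 10 genes, with 13 starts in all. Both strands were searched for the sterol regulatory element TCACNCCAC and for its fuller form, with A before it and C at the N, for the E-box CACGTG, for the NF-Y box CCAAT, for the LXR element made of AGGTNA and NGGTCA with 4 bases between, and for the GC box GGGCGG. Capitals mark these elements other than GC boxes, and an ATTGG is the CCAAT box read on the other strand.
SREBF2, chr22:41832945-41833024, forward strand, sterol regulatory element and CCAAT box: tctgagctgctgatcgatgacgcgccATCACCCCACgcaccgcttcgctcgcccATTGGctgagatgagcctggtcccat
INSIG1, chr7:155297811-155297840, forward strand, E-box: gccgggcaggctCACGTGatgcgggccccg
SCAP, chr3:47475982-47476011, reverse strand, E-box: cgccgctgggcgCACGTGcggagggcggcg
ABCA1, chr9:104928202-104928231, reverse strand, LXR element on the other strand: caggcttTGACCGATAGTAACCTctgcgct
MYLIP, chr6:16128974-16129033, forward strand, a pair of CCAAT boxes: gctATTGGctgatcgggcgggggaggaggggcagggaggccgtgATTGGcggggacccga

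SREBF2 was the only one of the 9 genes whose windows held a sterol regulatory element, 125 to 134 bases before the start. Of all 35116 RefSeq windows of this length, 0.883% held TCACNCCAC and 12 windows (0.0342%) held the fuller form. The LXR element of ABCA1, 54 to 69 bases before the start, occurred in 28 windows (0.0797%). E-boxes, present before INSIG1, SCAP and ABCA1, occurred in 6.34% of windows, CCAAT boxes in 32.0% and GC boxes in 42.6%. A match is a description of letters, not evidence that a factor binds there. Elements outside these windows or in other letters would be missed, so absence here does not mean that a gene lacks one.

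Markers of other cell types were looked up in all 6 libraries, and not all of them were low. Of 5 adipocyte markers none reached 1 TPM in mean, their summed level was 0.67 to 1.22 TPM in control and 0.81 to 1.24 TPM in ArA libraries, and ADIPOQ and LEP were listed at 0. Of 7 macrophage and blood markers, CD68, which many cell types express, was the only one tested, and PTPRC stayed at or below 0.15 TPM. The summed level of these 7 was 187 to 223 TPM in control and 219 to 268 TPM in ArA libraries, almost all from CD68. Of 6 mesenchymal markers of the line, VIM was the highest, between 1335 and 1515 TPM. ZEB1 was the lowest, between 2.73 and 5.45 TPM, and MSN, CD44, AXL and CAV1 lay between 80.0 and 401 TPM. Of 8 luminal markers, 5 were tested. PGR was listed at 0, ESR1 was at most 0.03 TPM and CDH1 at most 0.17 TPM. FOXA1 was at 2.88 to 3.71 TPM, GATA3 at 3.07 to 4.36 TPM and EPCAM at 3.17 to 6.92 TPM. The summed level of the 8 was 614 to 776 TPM in control and 657 to 753 TPM in ArA libraries, mostly KRT8 and KRT18.

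A pair of libraries stood apart from the other 4. When each library's deviation from a gene's mean was set against the GC content of the transcript, Pearson's r across genes was 0.45 in control replicate 2 and 0.41 in ArA replicate 1, against -0.40 to -0.10 in the other libraries. Mitochondrially encoded transcripts took 31.6 to 32.9% of each control library and 32.1% of ArA replicate 1, but 28.0% and 26.9% of ArA replicates 2 and 3, which raises the TPM of all other genes there. Each list is therefore given beside the median difference over the 12999 tested genes, which was 0.06 (log2). Whether the replicates are separate cultures is not in the labels, so p-values speak only of how these libraries vary, which may be technical.

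Of the 10 genes, 8 averaged 1 TPM or more and were tested, and 0 passed an adjusted p of 0.05 in limma, against 3 of 12999 tested genes (0.0231%), 2 with ArA higher (0.0154%) and 1 lower (0.00769%). None had an unadjusted p under 0.05 (2.78% of tested genes did), and the control and ArA ranges of all 8 overlapped (they did not overlap for 8.05% of tested genes, 6.84% with ArA higher and 1.21% lower). Log2 fold changes, taken on log2(TPM + 1), ran from -0.12 for INSIG1 to 0.36 for INSIG2, with a median of 0.14 against 0.06 over all tested genes. The median was 0.07 to 0.08 under 3 other scalings, where the median of all genes was near 0, and 0.05 without control replicate 3 (0.09 over all genes), 0.07 without ArA replicate 1 (0.11) and 0.24 without control replicate 2 (0.01). Of the 8, 6 were positive under the deposited scaling and 5 under each other scaling, against 68.9% and 49.3 to 51.7% of all tested genes.

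**Figure D1:**
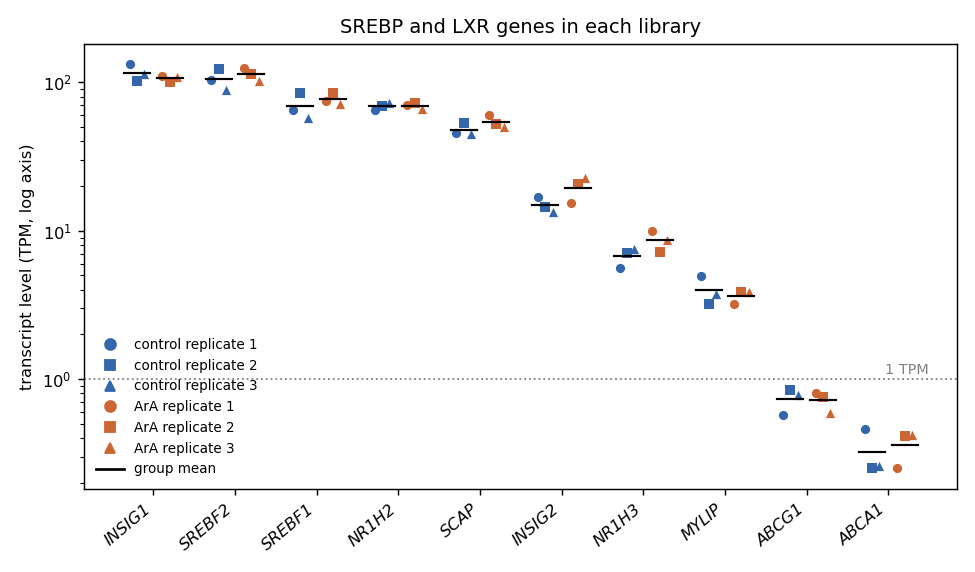
TPM of the 10 genes in each of the 6 libraries on a log axis, control in blue and ArA in orange, with marker shapes for replicates and black bars for group means. The genes spread from about 0.3 TPM for ABCA1 to over 100 TPM for INSIG1 and SREBF2, and the control and ArA points of every gene overlap.

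In order of level, INSIG1 (100.5 to 133 TPM) and SREBF2 (89.6 to 125 TPM) did not differ beyond their spread, nor did SREBF1 (57.4 to 84.8 TPM) and NR1H2 (65.5 to 73.1 TPM). Below them came SCAP (45.0 to 59.9 TPM), INSIG2 (13.3 to 22.6 TPM), NR1H3 (5.59 to 10.0 TPM), MYLIP (3.19 to 4.98 TPM), ABCG1 (0.57 to 0.85 TPM) and ABCA1 (0.25 to 0.46 TPM), and none of these ranges over the 6 libraries overlapped the next.

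SREBF1 (ENSG00000072310, chromosome 17, 17810399 to 17837002, reverse strand, GENCODE v29 on hg38) codes for SREBP-1 in its long and short forms, which a gene-level value does not separate. It measured 65.5, 84.5 and 57.4 TPM in the control libraries, against 74.4, 84.8 and 71.9 TPM with ArA. Control replicate 2 lay level with the highest ArA library, and the other control libraries lay below all 3 ArA libraries. The means were 69.1 ± 13.9 and 77.0 ± 6.83 TPM (SD, n = 3 each), a log2 fold change of 0.17 (SE 0.15, 95% interval -0.19 to 0.52, limma adjusted p = 0.999). The interval bounds the ratio of ArA to control between 0.878 and 1.44. Without control replicate 2 and ArA replicate 1 the log2 fold change was 0.34 (SE 0.11, unadjusted p = 0.0241, limma adjusted p = 0.497). In that fit 1289 of 13156 tested genes had an unadjusted limma p under 0.05. Without control replicate 3 the log2 fold change was 0.05. SREBF1 overlaps RAI1 on the opposite strand by 1055 bases, and with the strand setting of the counting unknown, reads of that stretch cannot be assigned. RAI1 was at 8.30 to 9.87 TPM.

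SREBF2 (ENSG00000198911, chromosome 22, 41833079 to 41907308, forward strand) codes for SREBP-2, and its promoter holds the sterol element printed above. It measured 104, 123 and 89.6 TPM in the control libraries, against 125, 115 and 102 TPM with ArA. The highest library of each group was the one with the positive GC trend. The means were 106 ± 17.0 and 114 ± 11.9 TPM (SD, n = 3 each), with a log2 fold change of 0.12 (SE 0.14, 95% interval -0.21 to 0.44, limma adjusted p = 0.999), or a ratio between 0.865 and 1.36. It was 0.05 after GC correction and 0.16 without both libraries of the pair. Omitting control replicate 3 gave 0.0045 and omitting control replicate 2 gave 0.23. SREBF2 transcripts stood 1.46 to 1.58 times as high as SREBF1 transcripts in control and 1.35 to 1.69 times in ArA libraries, ranges that overlap.

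SCAP (ENSG00000114650, chromosome 3, 47413694 to 47477126, reverse strand), the sterol-sensing escort of SREBP, measured 45.65, 53.2 and 45.0 TPM in the control libraries, against 59.9, 52.8 and 49.7 TPM with ArA. Control replicate 2 lay above ArA replicates 2 and 3, and the remaining control libraries lay below all ArA libraries. On log2(TPM + 1) the difference was 0.17 (SE 0.11, 95% interval -0.09 to 0.43, limma adjusted p = 0.999). After GC correction it was 0.11, and omitting ArA replicate 1 gave 0.098, below the 0.11 of all genes in that fit. SCAP and SREBF2 were 2 of 8 tested SREBP and LXR genes whose highest pair of libraries was control replicate 2 with ArA replicate 1, a pattern held by 7.97% of all tested genes, with a median GC content of 57.6%. The transcripts of SREBF1, SREBF2 and SCAP have 62.8, 57.1 and 62.3% GC, against a median of 48.3% over tested genes.

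**Figure D2:**
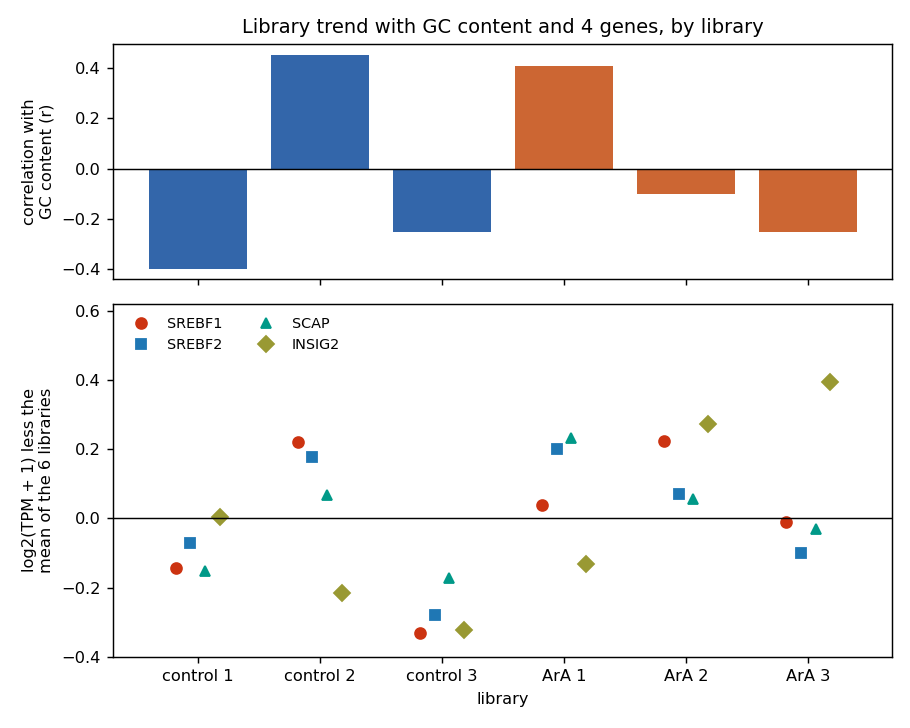
Upper panel, bars for each library's Pearson correlation, across genes, of its deviation from the gene mean with transcript GC content, control in blue and ArA in orange. Lower panel, points for log2(TPM + 1) of SREBF1, SREBF2, SCAP and INSIG2 less the gene's mean over the 6 libraries. Control replicate 2 and ArA replicate 1 have r of 0.45 and 0.41, SREBF2 and SCAP are highest in them, and INSIG2 is highest in ArA replicates 2 and 3.

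INSIG1 (ENSG00000186480, chromosome 7, 155297776 to 155310235, forward strand) codes for the retention protein that is itself a strong SREBP target. It measured 133, 102 and 114 TPM in the control libraries, against 111, 100.5 and 109 TPM with ArA. Control replicate 1 was the highest of all, and control replicate 2 lay among the ArA libraries. The means were 116 ± 15.5 and 107 ± 5.39 TPM (SD, n = 3 each), with a log2 fold change of -0.12 (SE 0.11, 95% interval -0.38 to 0.15, limma adjusted p = 0.999), or a ratio between 0.768 and 1.11. The value was -0.02 when control replicate 1 was omitted and -0.23 when control replicate 2 and ArA replicate 1 were, with adjusted p = 0.999 and 0.510 in limma.

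INSIG2 (ENSG00000125629, chromosome 2, 118088452 to 118110997, forward strand) codes for the second retention protein, which is less tied to SREBP activity. It measured 17.0, 14.4 and 13.3 TPM in the control libraries, against 15.4, 20.6 and 22.6 TPM with ArA. ArA replicates 2 and 3 lay above every control library, and ArA replicate 1 lay inside the control range. INSIG2 had the smallest p of the 8 tested genes, with means of 14.9 ± 1.87 and 19.5 ± 3.73 TPM (SD, n = 3 each), a log2 fold change of 0.36 (SE 0.17, 95% interval -0.03 to 0.75) and, in limma, an unadjusted p of 0.0683 and an adjusted p of 0.999. By p it ranked 536 among 12999 genes. Without ArA replicate 1 the log2 fold change was 0.51 (unadjusted p = 0.00999, limma adjusted p = 0.904). In that fit 480 of 13078 tested genes had an unadjusted limma p under 0.05. Over all alternatives the log2 fold change ran from 0.25 to 0.51 with no limma adjusted p below 0.458. ArA replicates 2 and 3 were also the libraries with the lowest mitochondrial share, and with TPM rescaled without mitochondrially encoded genes the value was 0.30. The part of that share and of the GC trend in these differences was not tested.

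The INSIG1 to INSIG2 ratio was 7.82, 7.07 and 8.56 in control replicates 1, 2 and 3 and 7.20, 4.87 and 4.82 in ArA replicates 1, 2 and 3. ArA replicate 1 lay within the control range and the other ArA libraries lay below it. This ratio was chosen after the values had been seen and has no test. The sum of both INSIG transcripts was 116 to 150 TPM in control and 121 to 131 TPM in ArA libraries, ranges that overlap.

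**Figure D3:**
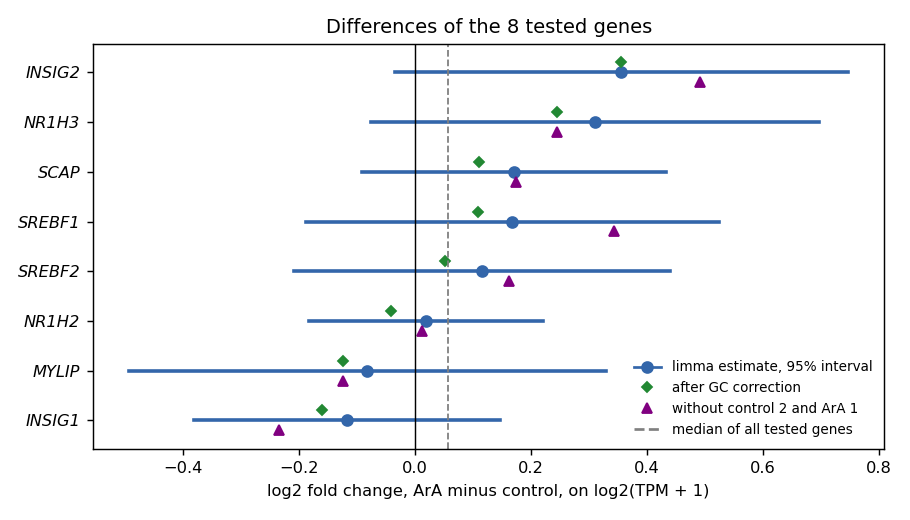
Log2 fold change of ArA minus control on log2(TPM + 1) for the 8 tested genes, with 95% intervals from limma as blue lines, values after GC correction as green diamonds, values without control replicate 2 and ArA replicate 1 as purple triangles, and the median of all tested genes (0.06) as a dashed line. Every interval includes 0, and INSIG2 and NR1H3 lie farthest to the right.

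Of 16 genes of SREBP transport, cleavage and turnover, all tested, 0 passed in either direction (0.0231% of all tested genes did). Under the deposited scaling 15 were positive (93.8%, against 68.9% of all tested genes), with a median of 0.07 against 0.06 over all tested genes. Under the other scalings 10 or 11 were positive, against 49.3 to 51.7% of all tested genes. Without control replicate 2 and ArA replicate 1, 9 of 16 were positive (65.6% of all genes). MBTPS1, the Golgi protease that makes the first cut in SREBP, measured 69.2, 64.9 and 58.9 TPM in the control libraries, against 81.2, 73.6 and 71.0 TPM with ArA. Its groups did not overlap, as for 1 other gene of this list and 6.84% of all tested genes with ArA higher, and its log2 fold change was 0.22 (SE 0.10, limma adjusted p = 0.999). ERLIN1, which helps degrade membrane proteins of the endoplasmic reticulum, was that other gene, at 90.6 to 106 TPM in control and 107 to 111 TPM in ArA libraries. FAF2, which draws INSIG1 to the proteasome and was the next by p, was at 70.6 to 80.9 and 80.4 to 86.5 TPM. The ubiquitin ligase gene RNF139 was the only negative member, at 3.61 to 6.59 and 4.20 to 5.39 TPM. The chaperone gene HSP90B1, the most abundant, ranged from 236 to 493 TPM in control and from 308 to 468 TPM in ArA libraries, lowest in control replicate 2 and ArA replicate 1. Of the 16 genes, 8 had this pair of libraries as their lowest, against 39.1% of all tested genes. The median GC of those 8 was 40.1%, against 41.8% for all tested genes with that pattern.

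The cholesterol synthesis and uptake genes, which SREBP-2 drives, gave 0 of 23 tested genes past the threshold in either direction, of 25 in the list. Of all tested genes, 0.0231% passed. Under the deposited scaling 16 were positive (69.6%, against 68.9% of all tested genes), with a median of 0.03 against 0.06 over all tested genes. Under each other scaling 6 (26.1%) were positive, against 49.3 to 51.7% of all genes, and the list median was -0.04 to -0.03. The share lay above or below that of all genes depending on the libraries left out. It was 52.2% without control replicate 2 (51.7% of all genes), 65.2% without ArA replicate 3 (55.6%) and 65.2% without ArA replicate 1 (80.3%). Without control replicate 2 and ArA replicate 1 together it was 73.9% (65.6% of all genes). The groups of all 23 overlapped, and those of 8.05% of all tested genes did not. GGPS1, which makes the isoprenoid for protein prenylation, was at 3.91 to 7.28 and 5.03 to 8.68 TPM. The thiolase gene ACAT2 was at 222 to 247 TPM in control and 205 to 231 TPM in ArA libraries, and MVD, of the mevalonate pathway, at 58.5 to 68.6 and 52.9 to 66.3 TPM. NPC1L1, a gut sterol importer, lay at no more than 0.11 TPM.

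The pair of libraries that stood apart was highest for a larger share of these genes than of all tested genes. The share for which it was lowest lay near that of all tested genes. In 8 of the 23 genes (34.8%, against 7.97% of all tested genes) control replicate 2 and ArA replicate 1 were the highest pair, among them DHCR7, EBP, FDFT1 and MVD, with a median GC of 54.6%. In 8 others (34.8%, against 39.1% of all tested genes) the same pair was the lowest, among them CYP51A1, GGPS1, HMGCS1 and IDI1, with a median GC of 40.7%. Over all tested genes the median GC was 57.6% where the pair was highest and 41.8% where it was lowest. HMGCS1, which makes HMG-CoA, was at 99.1 and 110 TPM in that pair and at 151 to 174 TPM in the other 4 libraries. The summed level of the 25 genes was 3809 to 4005 TPM in control and 3982 to 4123 TPM in ArA libraries.

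Of 17 genes of fatty acid synthesis, elongation and desaturation, which SREBP-1 drives, 15 were tested. Of these, 0 passed in either direction (0.0231% of all tested genes did). Under the deposited scaling 13 were positive (86.7%, against 68.9% of all tested genes), with a median of 0.06 against 0.06 over all tested genes. Under the other scalings 7 or 8 were positive, against 49.3 to 51.7% of all tested genes. The groups of all 15 overlapped, and those of 8.05% of all tested genes did not. SCD, the desaturase that makes oleate and the most abundant of the list, measured 878, 926 and 807 TPM in the control libraries, against 960, 894 and 878 TPM with ArA. Its log2 difference was 0.07 (SE 0.08, 95% interval -0.12 to 0.26, limma adjusted p = 0.999), and it was 0.0018 to 0.015 under the other scalings. FASN, the fatty acid synthase gene, was at 143 to 186 TPM in control and 170 to 183 TPM in ArA libraries, and the desaturase genes FADS1 and FADS2, which make arachidonate from dietary precursors, had ratios of means of 1.04 and 1.03. The genes named by p were MID1IP1, an activator of acetyl-CoA carboxylase, at 15.6 to 18.3 and 18.0 to 18.9 TPM, ME1, the malic enzyme, at 7.65 to 11.2 and 9.27 to 12.4 TPM, ACSS2, which makes acetyl-CoA from acetate, at 48.6 to 60.4 and 48.0 to 59.4 TPM, and AACS, which activates acetoacetate, at 21.6 to 24.0 and 21.9 to 23.1 TPM. THRSP and PNPLA3 lay below the filter.

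**Figure D4:**
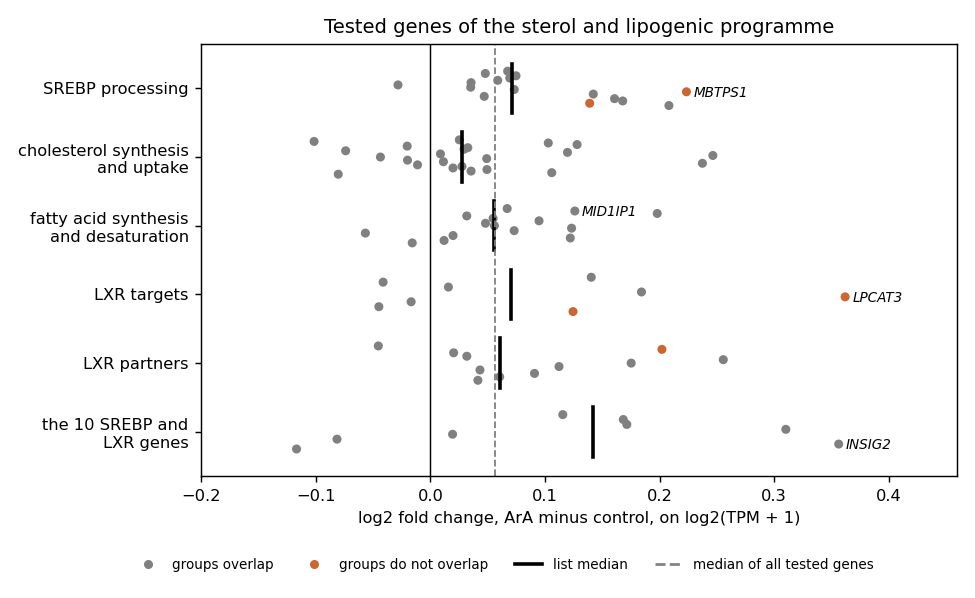
Log2 fold change of ArA minus control on log2(TPM + 1) for each tested gene of the 5 pathway lists and of the 10 SREBP and LXR genes (8 tested), with grey points where the groups overlap, orange points where they do not, black bars for list medians and a dashed line for the median of all tested genes (0.06). Single genes with the smallest p of their list are labelled in 4 rows, and LPCAT3 and INSIG2 lie farthest to the right.

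NR1H2 (ENSG00000131408, chromosome 19, 50329653 to 50382982, forward strand) codes for LXR-beta, the broadly expressed receptor. It measured 65.5, 68.9 and 72.25 TPM in the control libraries, against 70.5, 73.1 and 65.9 TPM with ArA. The libraries of both groups lay within the same narrow range, with means of 68.9 ± 3.39 and 69.8 ± 3.66 TPM (SD, n = 3 each). On the same scale it differed by 0.02 (SE 0.09, 95% interval -0.18 to 0.22, limma adjusted p = 0.999), or a ratio between 0.882 and 1.17, and its sign turned negative under each other scaling.

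NR1H3 (ENSG00000025434, chromosome 11, 47248300 to 47269032, forward strand) codes for LXR-alpha, the receptor of liver, fat and macrophages. It measured 5.59, 7.11 and 7.53 TPM in the control libraries, against 10.0, 7.22 and 8.61 TPM with ArA. ArA replicate 2 lay inside the control range and the other ArA libraries above it. The means were 6.74 ± 1.02 and 8.61 ± 1.39 TPM (SD, n = 3 each), with a log2 fold change of 0.31 (SE 0.16, 95% interval -0.08 to 0.70, unadjusted p = 0.0993, limma adjusted p = 0.999). It was 0.20 with control replicate 1 omitted, the lowest of its alternatives, and 0.42 with ArA replicate 2 omitted, the highest. Omitting ArA replicate 1 gave 0.21. NR1H3 overlaps ACP2 on the opposite strand by 607 bases, and ACP2 was at 37.6 to 44.3 TPM in control and 45.5 to 53.65 TPM in ArA libraries, so reads of the shared stretch may not be separated. NR1H2 transcripts stood 9.59 to 11.7 times as high as NR1H3 transcripts in control and 7.05 to 10.1 times in ArA libraries.

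Among 12 genes of LXR partners and cofactors, 11 were tested and 0 passed in either direction (0.0231% of all tested genes did). Under the deposited scaling 10 were positive (90.9%, against 68.9% of all tested genes). Under the others 5 or 7 were positive, against 49.3 to 51.7% of all tested genes. The median was 0.06 against 0.06 over all tested genes (0.11 against 0.06 without control replicate 2 and ArA replicate 1). RXRA and RXRB, which code for the partner receptors, were at 7.96 to 9.87 and 19.4 to 22.8 TPM over the 6 libraries, and RXRG was listed at 0 in all but control replicate 1. TBL1X, of a corepressor complex, was at 17.8 to 22.7 and 23.1 to 24.2 TPM and was the only 1 of the 11 whose groups did not overlap (6.84% of all tested genes with ArA higher). TBL1XR1, its close relative, was at 5.78 to 10.4 and 6.00 to 9.88 TPM and was the only negative member.

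The 3 LXR target genes were low in these cells. ABCA1 (ENSG00000165029, chromosome 9, 104781002 to 104928237, reverse strand), which loads cholesterol onto apolipoprotein A-I, measured 0.46, 0.25 and 0.26 TPM in the control libraries, against 0.25, 0.41 and 0.42 TPM with ArA. ABCG1 (ENSG00000160179, chromosome 21, 42199689 to 42297244, forward strand), which exports cholesterol to HDL, measured 0.57, 0.85 and 0.78 TPM in the control libraries, against 0.81, 0.76 and 0.59 TPM with ArA. For both the ArA and control ranges overlapped. Both lay below the filter of 1 TPM, and in the fit without a filter limma gave log2 differences of 0.04 (SE 0.10, adjusted p = 0.996) for ABCA1 and -0.0099 (SE 0.13, adjusted p = 1) for ABCG1, which the added 1 TPM holds close to 0 at such levels.

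MYLIP (ENSG00000007944, chromosome 6, 16129125 to 16148248, forward strand) codes for the ubiquitin ligase IDOL, which limits the uptake of cholesterol. It measured 4.98, 3.19 and 3.72 TPM in the control libraries, against 3.20, 3.89 and 3.86 TPM with ArA. Control replicate 1 was the highest, and all ArA libraries lay inside the control range. The log2 difference came to -0.08 (SE 0.17, 95% interval -0.49 to 0.33, limma adjusted p = 0.999), and without control replicate 1 it was 0.06.

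Of 15 other LXR targets, 8 were tested and 0 passed in either direction (0.0231% of all tested genes did). Under the deposited scaling 5 were positive (62.5%, against 68.9% of all tested genes). Under the others 4 or 5 were positive, against 49.3 to 51.7% of all tested genes. The median was 0.07 against 0.06 over all tested genes (0.04 against 0.06 without control replicate 2 and ArA replicate 1). LPCAT3, which places polyunsaturated chains into phospholipids, had the smallest p and measured 62.6, 68.9 and 57.4 TPM in the control libraries, against 88.2, 78.5 and 76.8 TPM with ArA. All 3 ArA libraries lay above all 3 control libraries, with a ratio of means of 1.29. Its log2 difference was 0.36 (SE 0.10, 95% interval 0.12 to 0.60), with an unadjusted p of 0.00939 and an adjusted p of 0.999 in limma, and no other gene of the 5 lists had an unadjusted p under 0.05, against 2.78% of all tested genes. Scaled by median of ratios, LPCAT3 had a difference of 0.30 with an unadjusted limma p of 0.0876. APOC1, an apolipoprotein gene and the most abundant of the list, was at 115 to 139 TPM in control and 140 to 144 TPM in ArA libraries and was the other gene of the 8 whose groups did not overlap (6.84% of all tested genes with ArA higher). The receptor kinase gene MERTK was at 13.0 to 14.2 and 14.0 to 16.3 TPM, APOD at 4.26 to 7.32 and 4.52 to 6.01 TPM, and SMPDL3A, a nucleotide-cleaving relative of acid sphingomyelinase, at 6.41 to 10.3 and 6.73 to 8.35 TPM. ABCG5, LPL and APOC2 were listed at 0 in all libraries.

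Genes with the most similar pattern were sought among 9141 tested genes of at least 5 TPM by Pearson's r of log2(TPM + 1) over the 6 libraries, which share group and GC trend. The 5 nearest to SREBF2 were RNASEH2C, TMEM222, P4HTM, P3H1 and SLC47A1 (r 0.98 to 0.99), and each was highest in control replicate 2 and ArA replicate 1. The nearest to SREBF1 were ELAC2, DOK1, HID1, PPP2R2D and BRD1 (r 0.96 to 0.98). Those nearest to INSIG2 were ENSG00000280416, which has no symbol in the table, ATL1, CRTC3, MERTK and NPIPA9 (r 0.98 to 0.99), all highest in ArA replicates 2 and 3. With r this high, sharing the highest libraries of SREBF2 or INSIG2 follows from how the genes were picked and is not a separate result. NPIPA9 belongs to a family of near-identical copies, so its level is uncertain.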

How the data were processed

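The authors deposited a single table of TPM with 1 column per library for 6 libraries. Samples were grouped and numbered by their titles, which the column names match. Per the submitters' processing notes, HISAT2, StringTie, RSEM and hg38 were used, with no roles or versions stated. For annotation and strand setting, nothing is given in the sources used here. Of the lines, 50 named no gene and were left out.

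The 12999 genes averaging 1 TPM or more were fitted on log2(TPM + 1) with limma 3.58.1 in R 4.3.3 (lmFit, eBayes with trend, group as the only term), 2-sided, with Benjamini-Hochberg adjustment over all tested genes and a threshold of 0.05. The fit was tested on simulated data. The simulated noise was independent between genes and held no GC trend, so that test does not give error rates for these libraries. Ratios of means are ratios of mean TPM. GC content came from the longest GENCODE v29 transcript (97.2% of tested genes), and the GC correction removed each library's trend by a natural spline with 5 degrees of freedom.

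The 10 genes and the lists were chosen with earlier results of these data known. From each list the text names the genes past the threshold, the 2 with the smallest p per direction and the most abundant gene. The genes ERLIN1, HMGCS1, FASN, FADS1, FADS2, RXRA, RXRB, those listed at 0 or below the filter and the genes of the library pair were named after their values had been seen. Some genes of the lists are counted but not reported by name here. The alternatives were 3 other scalings, pseudocounts of 0.1 and 5, other filters, the replicate block, eBayes without trend and each library left out. The GC correction, its form with the block, and the fit without the pair of libraries were added after seeing the data.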

Additional observations from a re-analysis of the deposited data

How the results depend on the processing

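None of the 8 tested SREBP and LXR genes passed in any of 18 alternatives, and the lowest limma adjusted p among them was 0.458 (INSIG2, without control replicate 2 and ArA replicate 1). Over all tested genes, 3 passed in the main fit, 0 with the replicate block, 0 to 8 with each library left out in turn, 5 after GC correction and 16 without control replicate 2 and ArA replicate 1. Single omissions gave 0 (control replicate 1, ArA replicate 2), 8 (control replicate 2) and 7 (ArA replicate 1). Deviations of same-numbered samples had r of -0.16, -0.28 and 0.11 for replicates 1, 2 and 3. Control replicate 2 and ArA replicate 1, the libraries with the positive GC trend, had r of 0.29. These deviations carry the GC trend, so they cannot show whether the numbers pair the samples. With the block none of the 8 genes passed.

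Scaling by median of ratios, quantile normalization, rescaling without mitochondrially encoded genes, GC correction and GC correction with the block gave, in that order, medians of -0.032, -0.043, -0.038, -0.030 and -0.030 for the cholesterol list (0.028 in the main fit), 0.0074, -0.0082, 0.0018, 0.020 and 0.020 for the fatty acid list (0.056), and log2 fold changes of -0.039, -0.046, -0.045, -0.041 and -0.041 for NR1H2. The median of all tested genes was 0.0031, 0.0053 and -0.0021 under the 3 scalings.

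With each library left out in turn, list medians ran from -0.029 to 0.15 for LXR targets, 0.029 to 0.17 for LXR partners, 0.026 to 0.077 for fatty acid synthesis and -0.013 to 0.19 for SREBP processing, lowest without control replicate 2 for LXR targets and SREBP processing. The log2 fold changes that changed sign ran from -0.016 to 0.060 for NR1H2, -0.20 to 0.061 for MYLIP, -0.19 to 0.17 for RNF139, -0.20 to 0.13 for APOD, -0.17 to 0.13 for SMPDL3A, -0.28 to 0.14 for TBL1XR1, -0.16 to 0.37 for HSP90B1, -0.055 to 0.018 for AACS, -0.14 to 0.011 for ACSS2 and -0.14 to 0.016 for MVD. AACS was at 0.037 without control replicate 2 and ArA replicate 1. The cause of these changes was not tested. TPM holds no depth, so genes under 1 TPM, such as ABCA1 and ABCG1, cannot be given a counting error.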
